A study of Mus musculus with 10 samples.

Results

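The comparison is between MHCII+ cells of the colon and MHCII+ cells of the spleen, sequenced as bulk polyadenylated RNA. Its members were 4 of the 10 libraries of the series, 2 colonic and 2 splenic, chosen by their titles (cell types DC_MHCLI and DC_MHCSp) and by no measured value. Both groups came from wild-type C57BL/6 mice aged 8 weeks, and the labels name no treatment, transgene or deletion for either. The letters LI and Sp were taken to mean colon and spleen, which the series names as its organs. No label says that the 2 libraries of a group were made from different animals, so p-values here rest on the spread between libraries and that spread may be technical. The sources used here do not describe how the cells were sorted beyond MHC class II. Estimated counts totalled 30939267 and 17935568 in colonic libraries 1 and 2, and 41769042 and 32313793 in splenic libraries 1 and 2. Of 8 sex-linked genes tested, 2 were higher in the colon and 1 was lower. Transcripts of the Y-linked gene Ddx3y were present in every library, at 215 and 220.0 CPM, the count scaled to the size of its library, in the colon and 158 and 149.97 CPM in the spleen.

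MHC class II molecules carry peptides from the endocytic route to the cell surface, where helper T cells read them. Dendritic cells, macrophages and B cells all make them, so a sort on MHC class II alone takes several cell types from each organ. In the spleen these include follicular and marginal zone B cells and the dendritic cells of the bridging channels, and in the colon they include resident macrophages and CD103+ dendritic cells of the lamina propria. Transcription of the class II genes depends on a promoter complex of RFX, CREB and NF-Y proteins and on the coactivator CIITA, which that complex recruits.

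Across 15076 genes tested, 9089 (60.3%) passed an adjusted p of 0.05 in edgeR's quasi-likelihood test with Benjamini-Hochberg adjustment, the source of every adjusted p below. Of these, 4768 (31.6% of genes tested) were higher in the colon and 4321 (28.7%) were lower. At a change of at least 2-fold, 36.4% were called, 3356 (22.3%) higher and 2138 (14.2%) lower. Over genes, which are not independent replicates, log2 CPM correlated at 0.955 between the colonic libraries, 0.979 between the splenic libraries and 0.729 to 0.745 between the tissues. The median log2 fold change over all genes was 0.02, so on this scale the median of a gene list can be read against a value close to 0, and its counts against 31.6% higher and 28.7% lower.

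Genes that nearly all white blood cells express were the first point of reference. Of 28 such pan-leukocyte genes, 25 were lower in the colon, 2 were higher and 1 did not pass, with a median log2 fold change of -1.21. Ptprc, which encodes the leukocyte phosphatase CD45 (ENSMUSG00000026395.16, mm10 chromosome 1, 138062861 to 138175708), was at 1169.9 and 1162 CPM in the colonic libraries and at 3115 and 3132 CPM in the splenic ones. Both colonic values lay far below both splenic values (2.68-fold, log2 fold change -1.42, SE 0.10, adjusted p = 6.1e-05). Coro1a, a regulator of actin in blood cells, was at 702 and 844 against 1766 and 1968 CPM. The lowest value of the list belonged to Ptpn6, the phosphatase SHP-1 that dampens antigen receptor signals, at 129 and 142 against 827 and 935 CPM. Cytip, a partner of the integrin regulator cytohesin-1, went the other way at 866 and 908 against 397 and 352 CPM, and so did the tetraspanin gene Cd53. Without colonic library 1 or splenic library 1 only 1 of the 28 was higher. In a bulk sample, fewer cells of a type and less RNA per cell cannot be told apart.

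**Figure D1:**
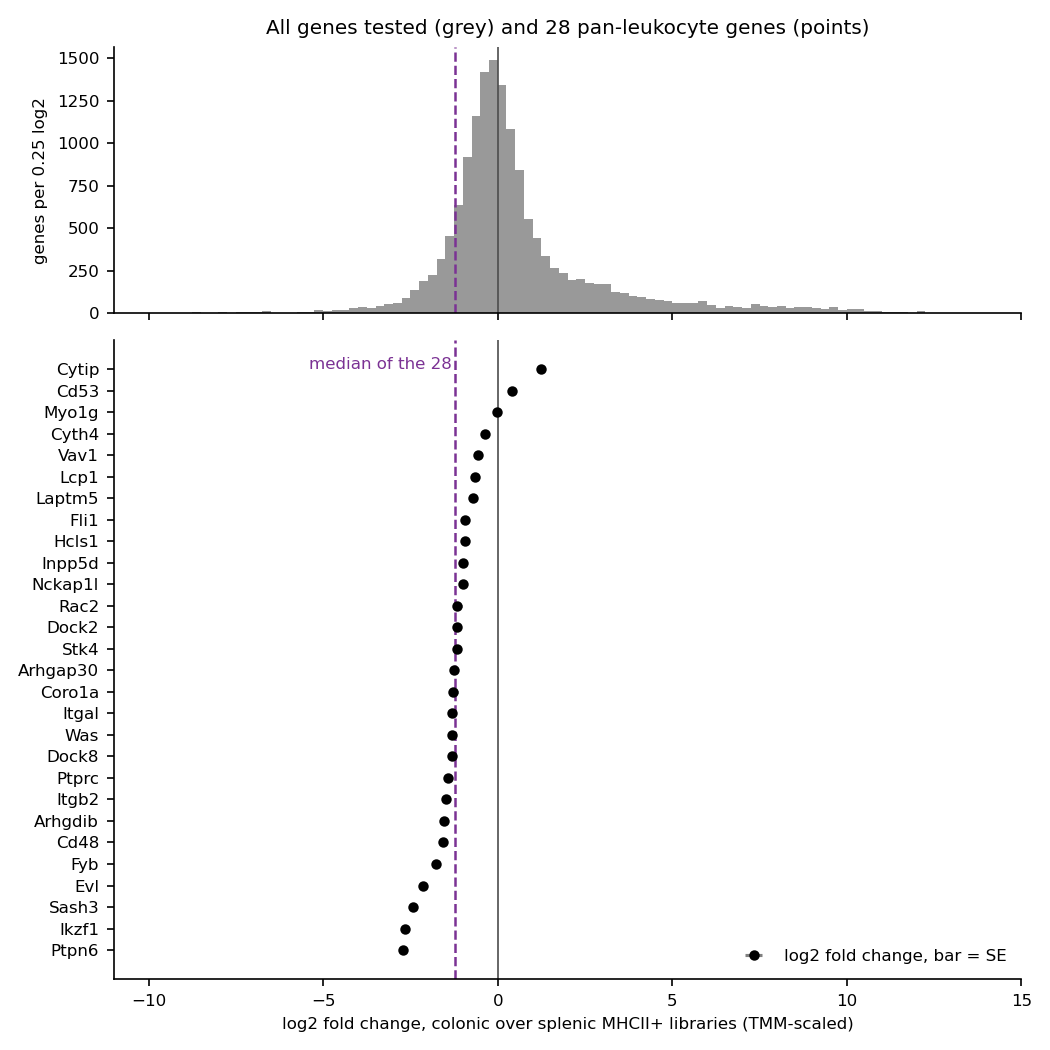
Upper panel, number of genes by log2 fold change, colonic over splenic, for the 15076 genes tested. Lower panel, the same value with its standard error for each of 28 pan-leukocyte genes, with the dashed line at their median of -1.21; 25 of the 28 lie below 0 and passed the test.

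CPM are shares of a library, so the same fit was also made with libraries scaled to these 28 genes, here called the leukocyte scale. It adds about 1.21 to each log2 fold change, and less for genes with very few counts. On that scale 78.4% of genes were called, and 10980 (72.8%) were higher in the colon and 835 (5.54%) were lower. Of the 4321 genes that were lower on the CPM scale, 835 (19.3%) were lower on both scales and 1615 turned to higher. The median over all genes was 1.23 on the leukocyte scale, so counts and medians there are read against 72.8% higher, 5.54% lower and a median of 1.23. A gene lower on both scales was thus lower also when set against the pan-leukocyte median. The reference list spans log2 fold changes of -2.70 to 1.25, so the leukocyte scale is a rough one.

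Epithelial and stromal transcripts, apart from those of tuft cell genes, were mostly higher in the colon. All 14 absorptive colonocyte genes tested were higher in the colon, with summed levels of 2113 and 1889.9 CPM against 4.23 and 7.98 CPM. Of 15 goblet and deep crypt secretory genes, 14 were higher and Kit, which mast cells also carry, was lower at a log2 fold change of -0.35. The call for Kit was lost without colonic library 1 (adjusted p = 0.0846) and without splenic library 1 (adjusted p = 0.229), with the length offset (adjusted p = 0.0783) and with all 10 libraries (adjusted p = 0.173). All 9 enteroendocrine genes tested and all 14 stem cell and regional genes were higher. Of 9 tuft cell genes, 3 were higher and 2 lower (1 higher without splenic library 1). Of 16 stromal, endothelial, muscle and glial genes, 12 were higher and 4 lower, and their sum was 1287 and 1581 CPM in the colon against 191 and 379.5 CPM in the spleen (without splenic library 1, 2 were lower). Muc2, the gel-forming mucin of goblet cells, was at 783 and 1175 against 0.751 and 1.30 CPM, and Pigr, the epithelial receptor that carries dimeric IgA into the lumen, at 932 and 914 against 1.15 and 2.05 CPM. Hoxb13, a homeobox gene of the hindgut, was at 69.9 and 68.2 against 0.0235 and 0.0604 CPM, and Chgb, a granule protein of endocrine cells, at 176 and 139.6 against 0.0235 and 0.151 CPM. Muc2, Pigr, Hoxb13 and Chgb were nearly silent in both splenic libraries. The tuft cell list was not, and its sum was lower in the colon, at 725 and 792 CPM against 1459 and 1483 CPM. Its members differed in direction, with a median log2 fold change of 0.73. Ptgs1, Trpm5 and Sh2d6 were called higher, and Fyb was the most abundant member called lower. The labels call both groups DC, and transcripts of the dendritic cell factor Zbtb46 were in all 4 libraries, but so were those of the B cell gene Cd79a, with values given below. The part of epithelial and stromal RNA in the results that follow was not tested.

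**Figure D2:**
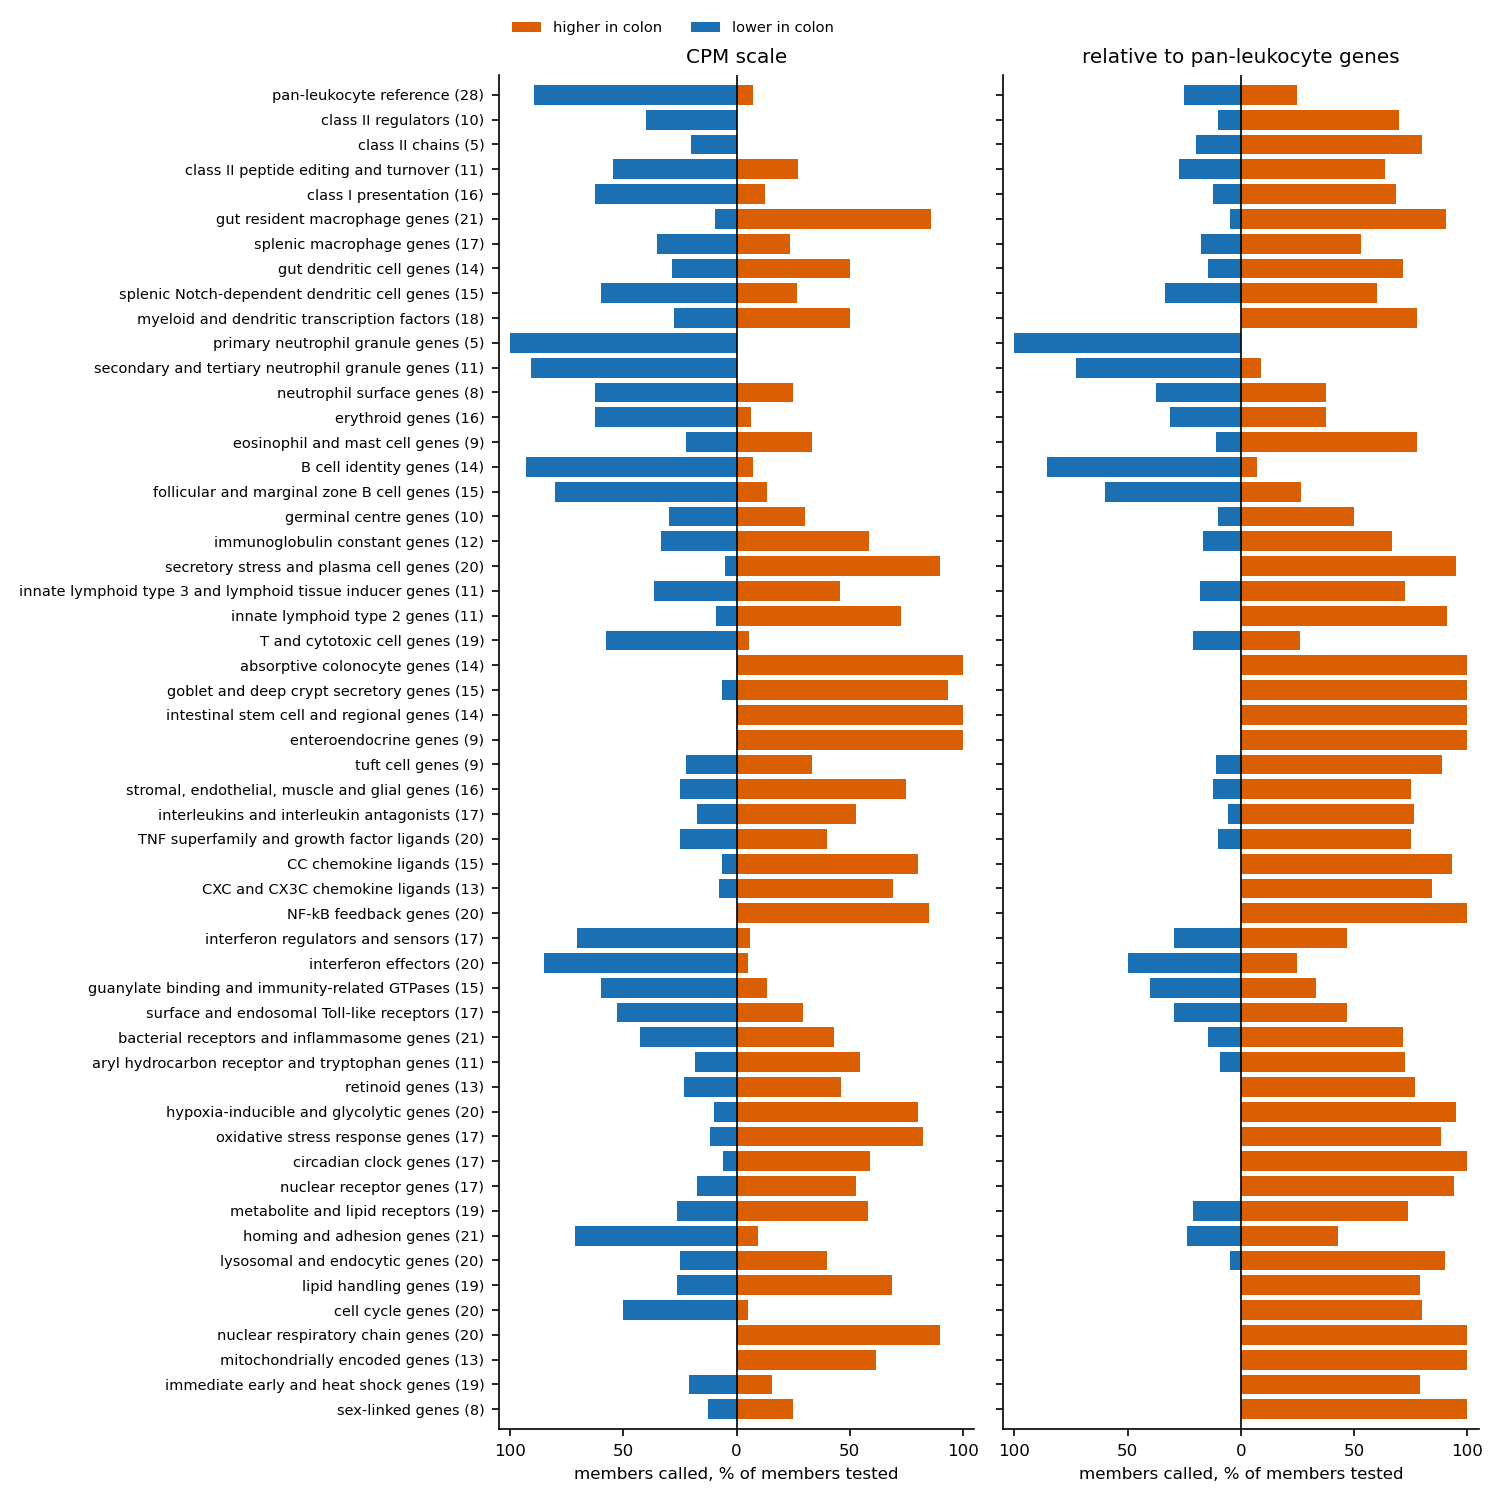
Members of each of 54 gene lists called higher (right, orange) or lower (left, blue) in colonic MHCII+ cells, as a percentage of the members tested, whose number stands in brackets. Left panel, CPM scale, where 25 of 28 pan-leukocyte genes were lower; right panel, relative to those 28 genes, where 12 of 14 B cell identity genes were still lower.

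The class II genes are given as regulators and as products. Most regulators did not pass on the CPM scale, and the largest difference among them was that of Ciita. On the leukocyte scale 72.8% of all genes were higher and 5.54% lower. Of 10 transcription regulators, 4 were lower in the colon and none was higher on the CPM scale, where 28.7% of all genes were lower; on the leukocyte scale 7 were higher and Ciita alone was lower (2 were without colonic library 2). Ciita (ENSMUSG00000022504.10, mm10 chromosome 16, 10480059 to 10528418) was at 47.9 and 59.6 CPM in the colonic libraries and at 675 and 619 CPM in the splenic ones. Its difference remained on the leukocyte scale, at a log2 fold change of -2.39 (adjusted p = 5.3e-06) where the CPM scale gave -3.59. Rfx5, the large subunit of the RFX complex, was at 22.8 and 36.04 against 76.0 and 73.2 CPM, and Nfya, a subunit of NF-Y, at 23.3 and 21.6 against 44.9 and 42.1 CPM. Rfxank, the ankyrin-repeat subunit of RFX, was at 9.995 and 10.5 against 16.3 and 17.9 CPM. For these 3 genes both colonic libraries were below both splenic ones, by 2.55-fold, 1.94-fold and 1.67-fold (adjusted p = 0.0017, 0.00072 and 0.0086). Without splenic library 2 the value of Rfxank no longer passed (adjusted p = 0.0548). Creb1, Irf1 and Spi1, which encodes the myeloid and B cell factor PU.1, did not pass the test, with log2 fold changes of 0.07, 0.14 and -0.21. With limma on log2(TPM + 1), 7 regulators were lower, Creb1 (adjusted p = 0.0273) and Spi1 (adjusted p = 0.0331) among them.

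Among the products, 1 of 5 was lower and the others did not pass on the CPM scale. H2-Ab1, the beta chain of I-A, was at 4403 and 5658 CPM in the colonic libraries and at 5058 and 4308 CPM in the splenic ones, and H2-Eb1, the beta chain of I-E, at 3777 and 4587 against 4409 and 3950.0 CPM. The groups overlapped for both. H2-Eb2 (ENSMUSG00000067341.6, mm10 chromosome 17, 34325665 to 34341412), a class II beta gene next to H2-Eb1, behaved otherwise, at 11.0 and 11.2 against 85.1 and 91.4 CPM (7.96-fold lower, log2 fold change -2.99, SE 0.11, adjusted p = 5.6e-06). It was also lower on the leukocyte scale, at -1.78. The other 4 genes of the list, namely H2-Aa, H2-Ab1, H2-Eb1 and Cd74, were higher there, as were 72.8% of all genes. The list's median on that scale was 1.2, close to the 1.23 of all genes. The estimated counts of near-identical H2 genes are uncertain, because kallisto divides reads that fit several of them.

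The genes for class II chains share an NF-Y motif in their promoters. The core of the Y box, CTGATTGG on either strand, was found in 3 of the 3 class II chain genes that have a RefSeq window from 250 bases before to 50 bases after the gene start (H2-Aa, H2-Eb1 and H2-Eb2), and in 4.70% of the windows of 27025 genes. The windows of H2-Aa, which did not pass (log2 fold change 0.12), and H2-Eb2, which was lower, are shown because they hold the same motif (RefSeq, GRCm38.p6, which is mm10; chr17:34287774-34288073, minus strand, and chr17:34325425-34325724, plus strand). They are written 5′ to 3′ on the strand of the gene, and capitals mark the Y box core. A match here and below describes the letters in the window and shows no binding.
H2-Aa: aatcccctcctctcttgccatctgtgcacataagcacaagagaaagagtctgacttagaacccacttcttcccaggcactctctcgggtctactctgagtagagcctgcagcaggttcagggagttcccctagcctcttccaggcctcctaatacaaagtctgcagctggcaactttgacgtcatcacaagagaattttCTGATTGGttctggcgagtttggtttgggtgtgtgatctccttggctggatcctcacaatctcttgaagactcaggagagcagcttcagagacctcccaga
H2-Eb2: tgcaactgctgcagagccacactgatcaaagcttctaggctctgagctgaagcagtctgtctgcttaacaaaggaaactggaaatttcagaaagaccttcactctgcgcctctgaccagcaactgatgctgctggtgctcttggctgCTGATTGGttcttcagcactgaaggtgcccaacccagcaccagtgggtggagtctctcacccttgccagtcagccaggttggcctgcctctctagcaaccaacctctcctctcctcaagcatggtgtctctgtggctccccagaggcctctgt

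Genes that load and recycle class II molecules gave a mixed picture. On the CPM scale 3 of 11 were higher and 6 lower, against 31.6% and 28.7% of all genes. On the leukocyte scale 7 were higher and 3 lower, against 72.8% and 5.54% of all genes. H2-DMb2, a beta chain of the peptide editor H2-M, was at 109 and 116 against 349.7 and 317 CPM. Further members are given after their values were seen. H2-Oa, a chain of the inhibitor of that editor, was at 32.8 and 31.8 CPM in the colon and 173 and 179 CPM in the spleen. March1, the ubiquitin ligase that sends surface class II to degradation, was at 14.5 and 16.005 against 100.4 and 104 CPM. H2-DMb2, H2-Oa and March1 were the 3 members lower on both scales. The proteases went their own ways: Lgmn, asparaginyl endopeptidase, was at 626 and 523 against 97.99 and 97.8 CPM (5.87-fold higher, adjusted p = 1.2e-05), while Ctss, the cathepsin that trims the invariant chain in dendritic cells and B cells, was at 774 and 785 against 950.1 and 1019.5 CPM. The call for Ctss (adjusted p = 0.024) was lost without splenic library 1, at an adjusted p of 0.0556, and without splenic library 2, at 0.125. Beside these values, 13 of 14 B cell identity genes were lower in the colon, with sums of 288 and 283 CPM against 1948 and 2042 CPM, and the part of B cell RNA in the class II results was not tested.

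**Figure D3:**
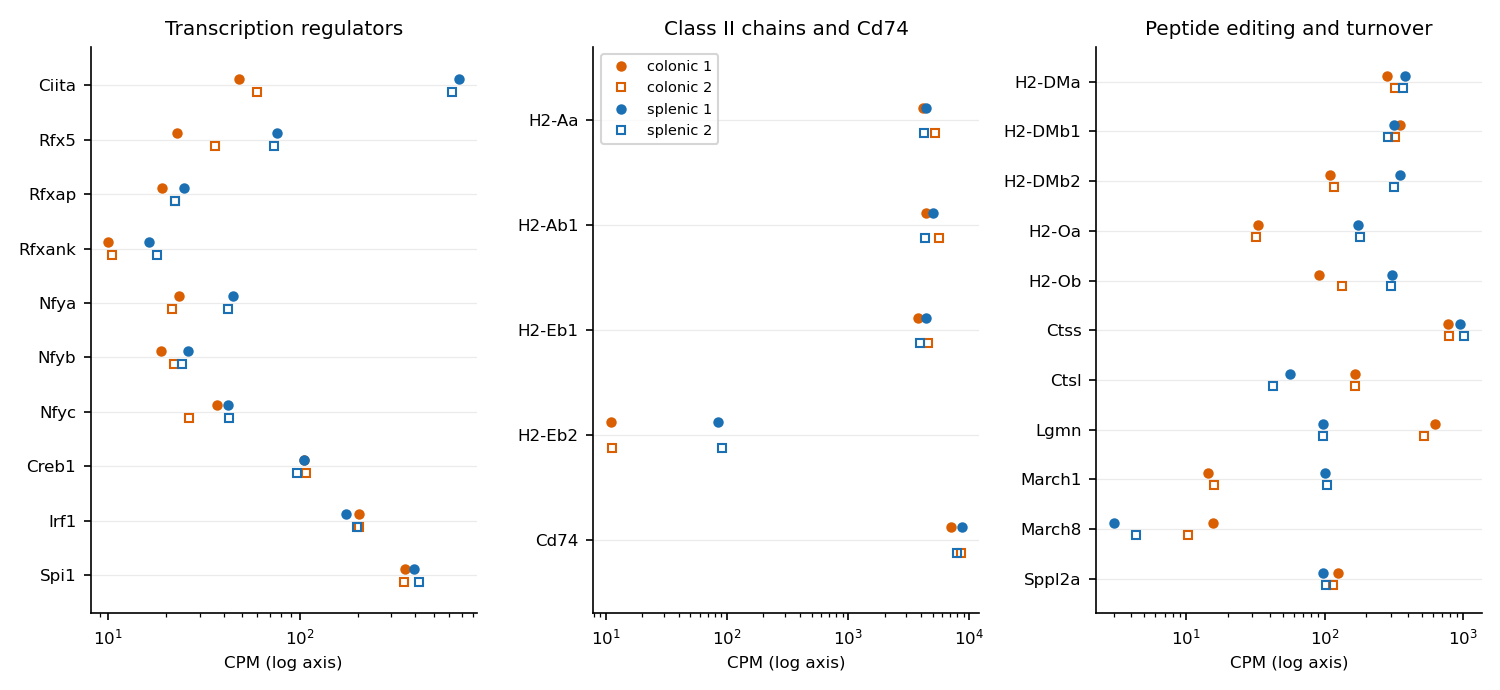
CPM of class II regulators, class II chains with the invariant chain Cd74, and genes of peptide editing and turnover in each library (colonic orange, splenic blue; filled circles library 1, open squares library 2; log axes). Ciita, H2-Eb2, H2-Oa and March1 separate the groups widely, while the groups overlap for H2-Aa, H2-Ab1, H2-Eb1 and Cd74.

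The class I route presents cytosolic peptides to CD8 T cells. Of its 16 genes, 10 were lower and 2 higher on the CPM scale (median -0.75), against 28.7% and 31.6% of all genes. Of these, 4 were at least 2-fold lower. The sums of the list were close, at 9110 and 9684.5 CPM in the colonic libraries and 9739 and 9847 CPM in the splenic ones. On the leukocyte scale 11 members were higher and 2 lower. The list's median there was 0.46, below the 1.23 of all genes, and its share of higher calls was under their 72.8%. B2m, the light chain of every class I molecule, was at 889 and 832 against 1366 and 1442 CPM, and Tap1, a subunit of the peptide transporter, at 179 and 208 against 325 and 343 CPM. Calr, a lectin chaperone of the endoplasmic reticulum, was at 1709.5 and 1697 against 772 and 741 CPM and with Pdia3 made up the 2 members that were higher. The 2 members lower on both scales were Nlrc5, the coactivator of class I genes, and Cd1d1, which presents lipids to natural killer T cells (1 was without colonic library 1, and 1 without splenic library 1). Nlrc5, chosen after its values were seen, was at 57.9 and 63.4 against 183 and 173 CPM (2.94-fold lower, adjusted p = 3.6e-05).

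Genes of resident gut macrophages were mostly higher in the colon. Of 21 members tested, 18 were higher in the colon (31.6% of all genes were), 2 were lower, and the median log2 fold change was 2.19. Selenop, a secreted selenium carrier, was at 378 and 308 CPM in the colonic libraries and 109 and 135 CPM in the splenic ones, and Adgre1, which encodes the macrophage marker F4/80, at 337 and 284 against 196 and 221 CPM. The call for Adgre1 was lost when all 10 libraries entered 1 fit (adjusted p = 0.339). Other members are given after their values were seen. Mrc1, the mannose receptor, was at 442 and 402 against 41.4 and 42.2 CPM, and C1qa, a chain of the complement component C1q, at 237 and 241 against 33.4 and 31.8 CPM. Dab2, an endocytic adaptor, was at 277 and 212 against 3.87 and 3.35 CPM and Timd4, a receptor for phosphatidylserine on dying cells, at 80.4 and 52.7 against 3.10 and 2.12 CPM. These were 10.1-fold, 7.33-fold, 67.4-fold and 25.3-fold higher. The members that were lower were Cx3cr1, the fractalkine receptor by which gut macrophages are often recognised, at 21.3 and 18.3 against 66.0 and 79.5 CPM, and Hpgd, which breaks down prostaglandin E2, at 26.8 and 26.8 against 63.1 and 80.2 CPM. Csf1r, the receptor of the macrophage growth factor, did not pass (log2 fold change 0.17, adjusted p = 0.29).

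Of 17 splenic macrophage genes, 4 were higher, 6 were lower and 7 did not pass, which is close to the 31.6% and 28.7% of all genes. With all 10 libraries in 1 fit, 1 was higher. Slc40a1, the iron exporter ferroportin, was at 24.5 and 31.0 against 77.5 and 95.3 CPM and Treml4, a receptor of red pulp and marginal zone phagocytes, at 13.0 and 8.76 against 34.0 and 34.9 CPM. Bach1, a haem-sensing repressor, was higher in the colon at 186 and 222 against 114 and 113 CPM. Spic, the transcription factor of iron-recycling red pulp macrophages, did not pass, with 19.8 and 12.7 CPM in the colon and 16.3 and 16.02 CPM in the spleen.

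Dendritic cell genes were compared by organ. Of 14 gut dendritic cell genes, 7 were higher and 4 lower, against 31.6% and 28.7% of all genes, so the share that was lower was that of the background. Itgae, the CD103 integrin chain that binds E-cadherin, was at 153 and 185 CPM in the colonic libraries and 20.1 and 16.6 CPM in the splenic ones (9.19-fold, adjusted p = 1.2e-05). Aldh1a2, which makes retinoic acid, was at 22.6 and 26.2 against 3.45 and 3.14 CPM, and Socs2, a feedback inhibitor of cytokine signals, at 22.4 and 24.5 against 3.69 and 4.96 CPM. Il22ra2, the soluble antagonist of interleukin 22 (chosen after its values were seen), was at 11.2 and 9.64 against 0.235 and 0.272 CPM. Il4i1, a secreted amino acid oxidase, was lower at 52.5 and 59.9 against 121 and 127 CPM. Ccr7, the receptor that guides migrating dendritic cells to lymph nodes, did not pass, at 159.6 and 136 against 133 and 102 CPM.

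Of 15 genes of the splenic dendritic cells that depend on Notch2, 9 were lower in the colon and 4 higher, and the median of -0.86 turned to 0.35 on the leukocyte scale, below the 1.23 of all genes. Notch2 itself was at 275 and 285 against 519 and 513 CPM, and was higher on the leukocyte scale. Cd4, carried by a splenic dendritic cell subset as well as by T cells, was at 27.2 and 25.8 against 123 and 133 CPM. Esam and Clec4a4, which mark the Notch-dependent subset and were chosen after their values were seen, were at 1.70 and 2.16 against 21.6 and 24.1 CPM and at 1.90 and 1.81 against 48.5 and 46.8 CPM. Both were lower on both scales, with log2 fold changes of -3.58 and -4.68 on the CPM scale. Dll1, a Notch ligand, stood against the list at 15.96 and 14.95 against 1.22 and 1.42 CPM.

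Among 18 myeloid and dendritic transcription factors, 9 were higher, 5 were lower (31.6% and 28.7% of all genes were). None was lower on the leukocyte scale, where only 5.54% of all genes were. Cebpb, a factor of activated macrophages, was at 367 and 375 against 226 and 236 CPM and Rel, an NF-kB subunit chosen after its values were seen, at 330.5 and 322 against 199.6 and 123 CPM. Zbtb46, a factor of conventional dendritic cells (chosen after its values were seen), was at 45.2 and 45.6 against 112 and 102 CPM. On the leukocyte scale its log2 fold change was -0.03 and did not pass. Cebpa, a factor of granulocyte and monocyte precursors, was at a log2 fold change of -0.24 and did not pass (adjusted p = 0.16).

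B cell identity genes, and follicular and marginal zone genes, were mostly lower in the colon on both scales. Of 14 B cell identity genes, 13 were lower on the CPM scale and 12 on the leukocyte scale, where 28.7% and 5.54% of all genes were. Cd79a, a signalling chain of the B cell receptor, was at 26.4 and 21.4 CPM in the colonic libraries and at 274 and 311 CPM in the splenic ones. Both colonic libraries were over 10-fold below both splenic ones (12.2-fold by the fit). The exception was Blnk, an adaptor that myeloid cells share, at 111 and 95.4 against 65.8 and 60.0 CPM. Of 15 follicular and marginal zone genes, 12 were lower, among them Cr2, the complement receptor CD21, at 3.73 and 4.73 against 169.9 and 159.6 CPM. On the leukocyte scale 9 of these 15 were lower and 4 higher. Of 10 germinal centre genes, 3 were higher and 3 lower, close to the 31.6% and 28.7% of all genes. On the leukocyte scale 5 of the 10 were higher and 1 was lower, against 72.8% and 5.54% of all genes.

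Antibody transcripts differed by class. Of 12 immunoglobulin genes tested, counting the joining chain gene Jchain, 7 were higher and 4 lower, against 31.6% and 28.7% of all genes. Ighm, of IgM, was at 248 and 181 CPM in the colonic libraries and 1918 and 2075 CPM in the splenic ones, and Ighd, of IgD on naive B cells, at 5.83 and 5.67 against 172 and 203.7 CPM. Igkc, the kappa light chain, was at 4216 and 4074 against 402 and 462 CPM, and Ighg1, of IgG1, at 43.6 and 49.0 against 4.01 and 0.695 CPM. Igha, of the IgA that mucosal plasma cells secrete, was at 12510.0 and 14456 against 53.6 and 33.9 CPM, 308-fold higher (log2 fold change 8.27, adjusted p = 5.4e-06). The IgM and IgD genes were 9.31-fold and 32.6-fold lower where the IgG1 gene was 19.1-fold and kappa 9.59-fold higher. Without splenic library 1 the log2 fold change of Ighg1 was 6.04 where all libraries gave 4.25. Ighg2c did not pass, at 1.33 and 0.935 against 0.681 and 7.19 CPM, and the splenic libraries lay on either side of the colonic ones. Iglc1 and Iglc2, of 2 lambda light chains, went in opposite directions (1.90 and -0.73 on the log2 scale), but near-identical copies make their split uncertain.

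The share of secreted forms was read from coding isoforms, as shares of each gene's summed TPM and with no test. Of the IgM transcripts, the secreted form with 455 residues made up 69.5 and 55.0% in the colonic libraries and 40.4 and 36.8% in the splenic ones. Of the IgA transcripts, the secreted form made up 99.4 and 99.5% in the colon and 98.1 and 95.9% in the spleen. The isoforms of Ptprc differed between organs as well. The longest form, with 1293 residues and all 3 variable exons, is the one B cells carry as B220, and it took 9.40 and 6.80% of 3 complete forms in the colon but 25.1 and 25.6% in the spleen. The form without those 3 exons, with 1154 residues, took 79.3 and 76.7% against 64.2 and 61.8%. In each of these 4 shares the organs did not overlap, which 2 libraries a group can show without any true difference. The splenic IgA shares rest on 50.6 and 53.6 estimated counts of the membrane form.

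Genes of plasma cells and of the secretory stress response were higher in the colon. Of 20 members, 18 were higher and 1 was lower, with a median of 1.72. Hspa5, the chaperone BiP of the endoplasmic reticulum, was at 6807 and 6962 CPM in the colonic libraries and at 1537 and 1256 CPM in the splenic ones (4.93-fold, log2 fold change 2.30, SE 0.14, adjusted p = 3.2e-05). Hsp90b1, its partner Grp94, was at 2787 and 2833 against 897 and 860.3 CPM, and Herpud1, of the degradation machinery, at 959 and 815 against 319.8 and 255 CPM. Members chosen after their values were seen include Sdc1, the plasma cell proteoglycan CD138 that epithelium also makes, at 72.0 and 81.8 against 2.49 and 2.33 CPM. Tnfrsf17, the survival receptor BCMA of plasma cells, was at 7.23 and 4.67 against 0.141 and 0.121 CPM. The member that was lower was Irf4, a factor of plasma cells and of type 2 dendritic cells, at 32.3 and 39.0 against 109 and 73.6 CPM. Several of these chaperones serve every secretory cell. The goblet and deep crypt secretory list summed to 3084.5 and 3682 CPM in the colon against 181 and 158 CPM in the spleen. The part of goblet cell RNA in these values was not tested.

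The binding element of the unfolded protein response, CCAAT followed after any 9 bases by CCACG on either strand, occurred in the windows of 5 of 18 of these genes (Derl3, Hsp90b1, Hspa5, Creld2 and Pdia6) and in 0.137% of all windows. All 5 of these genes were higher in the colon, but so were 18 of the 20 members of the list. Their direction thus does not set them apart from the list. The window of Hspa5 (chr2:34771840-34772139, plus strand, RefSeq GRCm38.p6) is shown because it belongs to the gene just described, with the element in capitals.
Hspa5: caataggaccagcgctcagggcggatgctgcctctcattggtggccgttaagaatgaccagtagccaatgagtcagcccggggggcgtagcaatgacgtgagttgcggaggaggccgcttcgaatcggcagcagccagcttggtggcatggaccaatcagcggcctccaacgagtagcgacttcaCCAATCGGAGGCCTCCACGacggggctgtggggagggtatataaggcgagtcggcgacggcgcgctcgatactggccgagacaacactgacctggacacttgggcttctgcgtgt

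Most chemokine genes, and about as many interleukin genes as not, were higher in the colon. Of 17 interleukin and antagonist genes, 9 were higher and 3 lower, against 31.6% and 28.7% of all genes. Il1rn, the natural antagonist of the interleukin 1 receptor, was at 178 and 157 CPM in the colonic libraries and at 9.30 and 12.6 CPM in the splenic ones (15.3-fold, adjusted p = 9.8e-06). Ebi3, a shared subunit of interleukins 27 and 35, was at 65.5 and 73.1 against 41.3 and 40.0 CPM. Il16, an attractant of CD4+ cells, was lower at 98.4 and 89.7 against 289 and 342 CPM. Members chosen after their values were seen covered both inflammatory and restraining signals. Il10, the main restraining cytokine of gut macrophages, was at 33.9 and 30.7 against 0.986 and 0.816 CPM and Il6 at 46.0 and 47.3 against 0.892 and 1.84 CPM. Il1a, an alarm cytokine, was at 118 and 88.7 against 1.81 and 1.18 CPM. Splenic levels of all 3 were under 2 CPM. Il12b, the subunit that interleukins 12 and 23 share, did not pass, at 5.53 and 7.54 against 6.10 and 3.81 CPM, and Il12a was lower in the colon, at 1.67 and 0.526 against 5.73 and 4.62 CPM. The log2 fold change of Il12a was -3.33 without colonic library 1 and -2.05, no longer passing (adjusted p = 0.0591), without splenic library 1, where all libraries gave -2.18.

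Among 20 TNF superfamily and growth factor ligands, 8 were higher and 5 lower (3 lower without splenic library 1 and 3 without splenic library 2). Of all genes, 31.6% were higher and 28.7% lower. Areg and Hbegf, ligands of the epidermal growth factor receptor, were at 209.9 and 183 against 0.540 and 0.725 CPM and at 111 and 93.7 against 1.502 and 0.937 CPM. The splenic libraries held next to none of either. Tnf was at 159 and 101 against 29.2 and 42.5 CPM, a call lost when all 10 libraries were fitted together (adjusted p = 0.0527). Ltb, the lymphotoxin subunit needed for lymphoid tissue, was lower on both scales at 72.6 and 61.7 against 266 and 321 CPM.

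Of 15 CC chemokine ligands, 12 were higher in the colon and 1 was lower, with a median log2 fold change of 4.40. Ccl2, which draws monocytes from the blood, was at 102 and 78.8 CPM in the colonic libraries and at 4.58 and 3.93 CPM in the splenic ones. Ccl6 and Ccl9, chemokines of mouse myeloid cells, were at 482 and 543 against 165 and 214 CPM and at 175 and 142 against 40.2 and 46.2 CPM. Ccl5, made by T cells and natural killer cells, was the member that was lower, at 49.7 and 57.2 against 72.9 and 94.7 CPM, and its call was lost when all 10 libraries were fitted together (adjusted p = 0.394). Ccl20 and Ccl28, chemokines of the epithelium chosen after their values were seen, had no count in either splenic library and were at least 54.1-fold and at least 50.9-fold higher, against a floor of 3 counts in each splenic library that covers counting error only.

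Of 13 CXC and CX3C ligands, 9 were higher and 1 was lower. Cxcl2, an attractant of neutrophils, was at 368 and 295 CPM in the colonic libraries and at 17.4 and 10.1 CPM in the splenic ones (24.0-fold, adjusted p = 3.1e-05). Cxcl9 and Cxcl10 bind the same receptor, CXCR3, yet differed in opposite directions: Cxcl10 was higher at 58.8 and 63.9 against 6.57 and 7.92 CPM and Cxcl9 lower at 12.3 and 15.07 against 31.1 and 30.6 CPM. On the leukocyte scale Cxcl9 no longer passed, with a log2 fold change of 0.03. Cxcl3, chosen after its values were seen and like Cxcl2 a ligand of CXCR2, was at 22.0 and 17.4 CPM in the colon with no count in either splenic library, at least 245-fold higher.

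**Figure D4:**
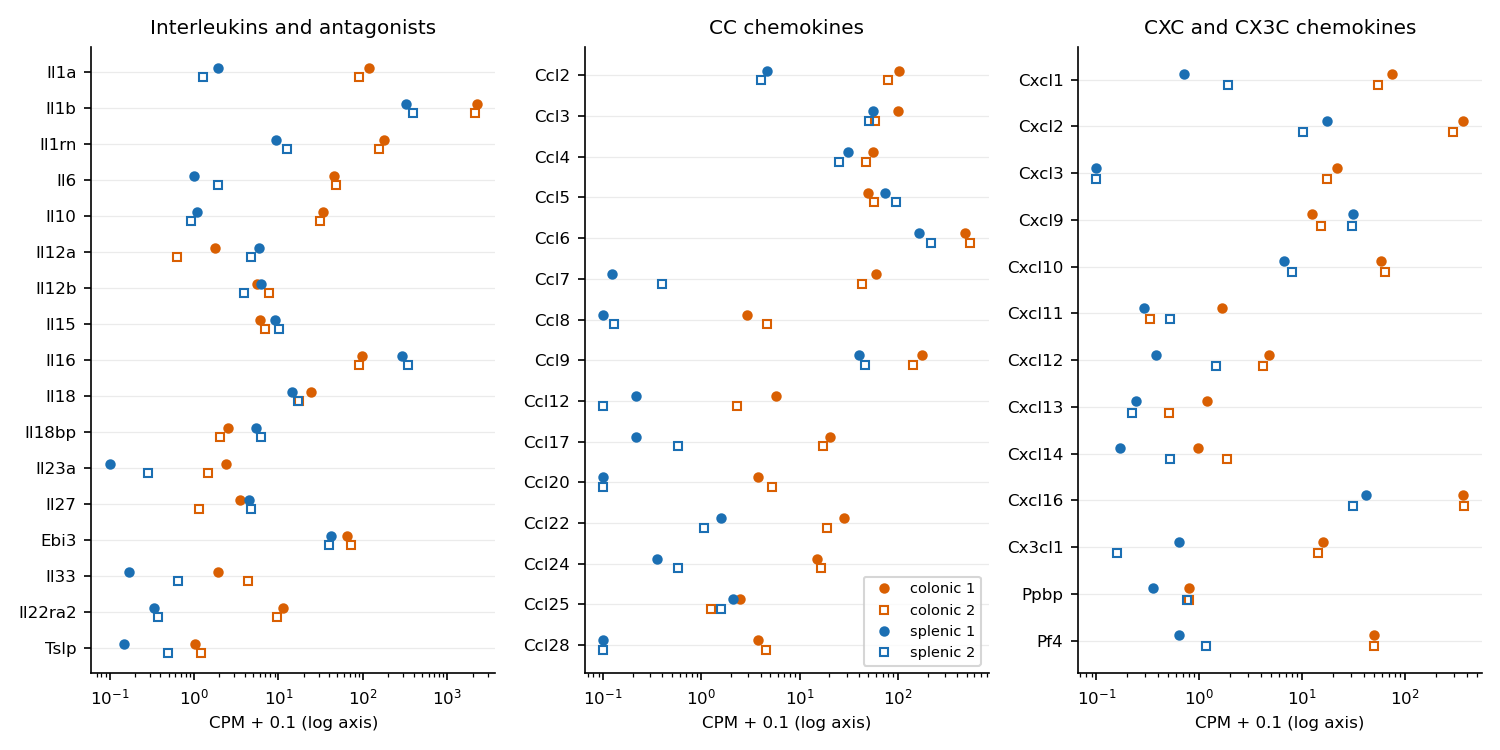
CPM + 0.1 of interleukins, CC chemokines and CXC and CX3C chemokines in each library (colonic orange, splenic blue; filled circles library 1, open squares library 2; log axes). Colonic points lie right of splenic points for most genes, and Il16, Ccl5 and Cxcl9 are among those where they lie left.

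Target and feedback genes of NF-kB, the factor that inflammatory receptors activate, were higher as a group. Of 20 members, 17 were higher and none was lower, and on the leukocyte scale all 20 were higher, where 72.8% of all genes were. Nfkbia, the inhibitor that NF-kB induces against itself, was at 1004 and 1003 CPM in the colonic libraries and 410.3 and 317 CPM in the splenic ones. Nfkb2, the precursor of p52, was at 773 and 813 against 347 and 329 CPM. Tnfaip3, the deubiquitinase A20 that ends the signal, was at 862 and 796 against 380.1 and 169.8 CPM, and its splenic libraries differed more from each other than the colonic ones did. Its log2 fold change was 2.27 without splenic library 1, where all libraries gave 1.59. Tnip3, a partner of A20 chosen after its values were seen, stood furthest out at 126 and 139 against 2.79 and 2.57 CPM (49.2-fold). Nfkb1, Nfkbid and Nfkbiz did not pass, with log2 fold changes of 0.24, -0.18 and 0.30. The NF-kB site, GGG followed after any 2 bases by TTTCC on either strand, was found in the windows of 4 of 15 of these genes, 3 of 11 CXC and CX3C ligands (Cxcl1, Cxcl2 and Cxcl3) and 1.89% of all genes. The window of Cxcl2 (chr5:90903649-90903948, plus strand, RefSeq GRCm38.p6) is printed because it holds 2 such sites, in capitals.
Cxcl2: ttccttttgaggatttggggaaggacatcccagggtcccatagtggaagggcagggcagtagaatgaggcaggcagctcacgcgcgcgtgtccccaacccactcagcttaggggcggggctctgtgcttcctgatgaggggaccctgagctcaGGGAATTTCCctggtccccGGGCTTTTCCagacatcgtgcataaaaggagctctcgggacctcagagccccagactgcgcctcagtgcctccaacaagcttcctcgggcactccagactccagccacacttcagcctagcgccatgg

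Genes that interferons induce were mostly lower in the colon on the CPM scale. Of 20 antiviral effectors, 17 were lower in the colon, 1 was higher, and the median log2 fold change was -1.90. On the leukocyte scale 10 were lower and 5 higher, against 5.54% and 72.8% of all genes (3 higher without colonic library 1, splenic library 1 or splenic library 2). Oas2, which makes the second messenger of RNase L, was at 21.7 and 18.3 CPM in the colonic libraries and at 79.3 and 77.7 CPM in the splenic ones (3.92-fold lower, adjusted p = 3.3e-05). Trim30a, a regulator of innate signalling, was at 46.8 and 45.9 against 170.2 and 161 CPM, and Bst2, the virus tether that also marks plasmacytoid dendritic cells, at 60.7 and 60.1 against 86.9 and 80.4 CPM. The member that was higher was Oasl1, a translational repressor of Irf7, at 24.7 and 21.8 against 13.7 and 15.5 CPM, and this call was lost without splenic library 1 (adjusted p = 0.077).

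Of 17 interferon regulators and sensors, 12 were lower and 1 was higher (2 without colonic library 2, and 3 with DESeq2), with a median of -0.69 that turned to 0.53 on the leukocyte scale, below the 1.23 of all genes. Stat2, a factor of type I interferon signalling, was at 68.8 and 83.004 against 156 and 155 CPM and did not pass on the leukocyte scale. The receptor chain Ifnar1 was higher, at 176 and 170.2 against 116 and 113 CPM, and the other chains Ifnar2, Ifngr1 and Ifngr2 did not pass. Among 15 interferon-inducible GTPases, 9 were lower and 2 higher (none higher with limma). Gbp9 was at 37.7 and 36.2 against 134 and 146 CPM and Irgm1, a regulator of autophagy of microbes, at 24.9 and 25.1 against 64.0 and 83.97 CPM. Gbp2 was higher at 62.7 and 80.6 against 28.6 and 45.2 CPM, though the split of reads within this family is uncertain.

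The core of the interferon-stimulated response element, a pair of GAAA separated by any 2 bases on either strand, was found in the windows of 9 of 15 effectors, 9 of 10 of the GTPases, 3 of 13 regulators and 3.99% of all genes. The windows of Ifit3 and Isg15 are shown because both hold the core and only the first passed the test; they were chosen after their values were seen. Ifit3, an antiviral binding protein, was at 5.73 and 2.80 CPM in the colon and 34.3 and 41.1 CPM in the spleen, 8.57-fold lower (log2 fold change -3.10, adjusted p = 0.00029, and -3.79 without colonic library 1). Isg15, a ubiquitin-like modifier, was at 33.6 and 32.0 against 22.7 and 31.1 CPM and did not pass (adjusted p = 0.20). The windows (chr19:34583279-34583578, plus strand, and chr4:156200769-156201068, minus strand, RefSeq GRCm38.p6) hold 2 cores each, in capitals.
Ifit3: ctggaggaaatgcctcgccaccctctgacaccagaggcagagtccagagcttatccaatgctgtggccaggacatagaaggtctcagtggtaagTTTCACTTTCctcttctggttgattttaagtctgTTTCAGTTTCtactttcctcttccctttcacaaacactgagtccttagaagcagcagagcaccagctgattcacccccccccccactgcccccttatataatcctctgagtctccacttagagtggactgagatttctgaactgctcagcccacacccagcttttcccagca
Isg15: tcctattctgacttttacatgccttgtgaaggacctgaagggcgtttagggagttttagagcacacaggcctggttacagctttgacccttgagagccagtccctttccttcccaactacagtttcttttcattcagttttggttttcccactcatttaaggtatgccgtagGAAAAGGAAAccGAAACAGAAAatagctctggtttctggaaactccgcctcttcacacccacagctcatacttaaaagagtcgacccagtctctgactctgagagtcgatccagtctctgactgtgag

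**Figure D5:**
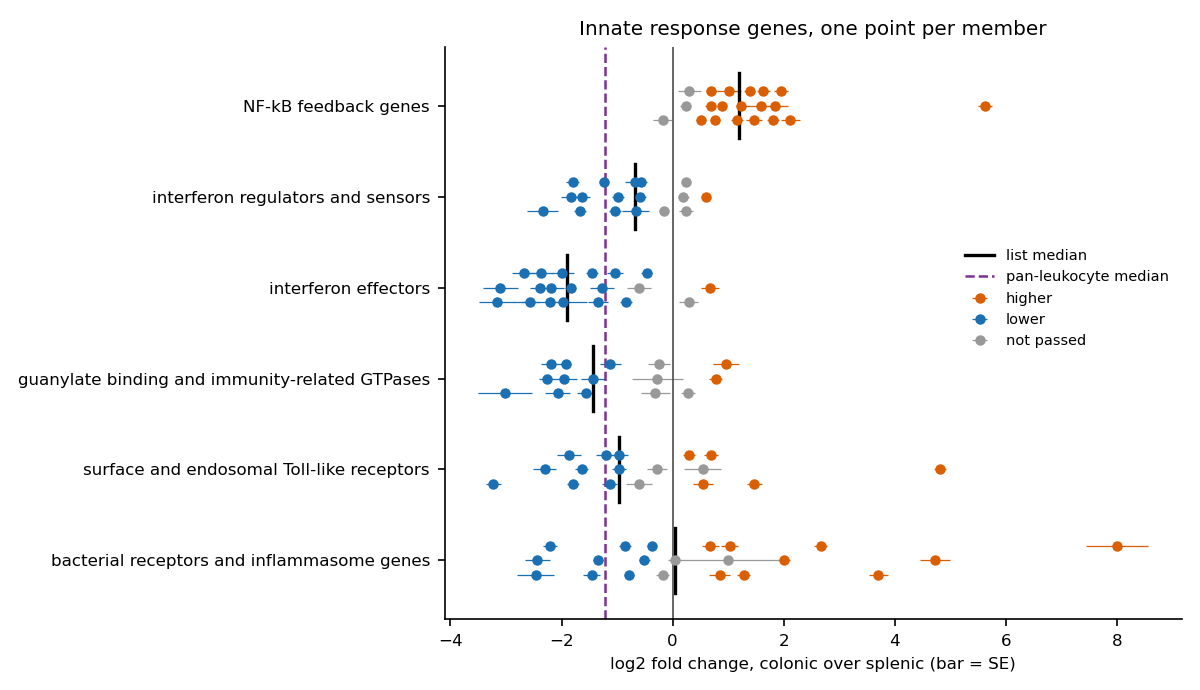
Log2 fold change, colonic over splenic, of each member of 6 innate response lists, with its standard error (orange higher, blue lower, grey not passed). Black bars mark list medians, 1.19 for NF-kB feedback genes and -1.90 for interferon effectors, and the dashed line marks the pan-leukocyte median of -1.21.

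Of 17 Toll-like receptors and partners, 9 were lower and 5 higher (3 higher without colonic library 2 or splenic library 1, and 2 with limma on log2(TPM + 1)), and the median of -0.97 turned to 0.24 on the leukocyte scale, below the 1.23 of all genes. Tlr9, the endosomal sensor of unmethylated DNA, was at 37.4 and 39.6 CPM in the colonic libraries and at 125 and 143 CPM in the splenic ones, and Tlr13, a sensor of bacterial ribosomal RNA, at 63.1 and 55.3 against 116 and 144 CPM. Unc93b1, the chaperone that takes these receptors to endosomes, was at 372 and 439 against 831 and 757 CPM. Tlr9 alone of these 3 was also lower on the leukocyte scale, at -0.59. Tlr2, a surface receptor for lipoproteins chosen after its values were seen, was higher at 275 and 224 against 96.7 and 83.3 CPM.

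Of 21 further bacterial receptors and inflammasome genes, 9 were higher and 9 lower, against 31.6% and 28.7% of all genes. The list's median log2 fold change was 0.04. Clec4e, the glycolipid receptor Mincle, was at 228 and 172 against 13.9 and 16.8 CPM (13.0-fold) and Clec7a, the beta-glucan receptor Dectin-1, at 233 and 172 against 97.5 and 102 CPM. Naip5, a sensor of flagellin, was lower at 122 and 107 against 167 and 158 CPM. Nod1 and Nod2, the peptidoglycan sensors, were chosen after their values were seen and went in opposite directions. Nod2 was at 94.5 and 110.2 against 25.5 and 25.5 CPM and Nod1 at 42.5 and 34.2 against 175 and 181 CPM. Casp4, the sensor of cytosolic lipopolysaccharide (also chosen so), was at 188 and 176 against 26.3 and 31.1 CPM.

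Homing and adhesion genes were mostly lower on the CPM scale. Of 21 members, 15 were lower and 2 higher on the CPM scale (1 higher without either colonic library or without splenic library 2), but on the leukocyte scale 9 were higher and 5 lower, against 72.8% and 5.54% of all genes. The list thus held fewer higher and more lower calls there than all genes did. Itgb2 and Itgal, the chains of LFA-1, were at 347 and 360.3 against 931 and 1034 CPM and at 303 and 312 against 709 and 810.4 CPM, and neither passed on the leukocyte scale. Members lower on both scales included Ccr6, Cxcr5, S1pr1 and S1pr4, receptors for lymphoid tissue, follicles and exit to the blood. S1pr1, chosen after its values were seen, was at 7.66 and 8.06 against 58.4 and 63.5 CPM. Klf2, the factor that drives S1pr1 in lymphocytes, was at 229.8 and 230.4 against 690.5 and 493 CPM. B cells carry these receptors, and the B cell identity list was lower in the same libraries, as given above. The part of B cells in these values was not tested.

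Receptors for metabolites were higher more often than lower. Of 19 members, 11 were higher and 5 lower (7 higher with limma), against 31.6% and 28.7% of all genes. The share that was lower was thus close to that of all genes. Gpr132 and Gpr65, receptors for lactate or acid, were at 469 and 441 against 200.5 and 151 CPM and at 109.5 and 93.7 against 61.9 and 53.8 CPM, and Ptafr, the receptor of platelet-activating factor, at 127 and 109 against 30.2 and 37.3 CPM. Ffar2, the receptor for acetate and other short-chain fatty acids that colonic bacteria make, was lower in the colon at 13.8 and 12.7 against 79.7 and 84.5 CPM. It was 6.18-fold lower (adjusted p = 9e-06) and lower on the leukocyte scale too, at a log2 fold change of -1.42. Sucnr1, the succinate receptor (chosen after its values were seen), was at 5.61 and 7.31 CPM in the spleen and under 0.1 CPM in both colonic libraries. Neutrophils also carry Ffar2, and 10 of 11 secondary and tertiary neutrophil granule genes were lower in the colon, with sums of 616 and 468 CPM against 6776 and 9438 CPM. Their part in the value of Ffar2 was not tested.

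Nuclear receptors and sensors of diet were higher more often than lower. The counts below are read against 31.6% of all genes higher and 28.7% lower. Of 17 nuclear receptor genes, 9 were higher and 3 lower. Nr4a3, an early gene of antigen receptor and inflammatory signals, was at 259 and 258 CPM in the colonic libraries and at 24.6 and 14.96 CPM in the splenic ones, and Ppard, a fatty acid sensor, at 55.9 and 61.8 against 21.6 and 20.3 CPM. Nr3c1, the glucocorticoid receptor, was lower at 65.3 and 65.0 against 100.03 and 109 CPM. Vdr, the vitamin D receptor (chosen after its values were seen), was at 52.4 and 58.0 against 0.188 and 0.544 CPM, but epithelium carries it too. Ahr, the aryl hydrocarbon receptor that senses dietary and bacterial indoles, was at 196 and 174 against 58.8 and 43.2 CPM and its target Tiparp at 116 and 95.9 against 58.2 and 38.6 CPM. Its classical target Cyp1a1 was too low to be tested, with 0.2999 and 0 CPM in the colonic libraries. Of 11 genes of that receptor and of tryptophan use, 6 were higher and 2 lower. Of 13 retinoid genes, 6 were higher and 3 lower. Dhrs3, which turns retinal back to retinol, was at 37.7 and 34.7 against 10.05 and 11.9 CPM, and Rara, the main retinoic acid receptor of leukocytes, was lower at 50.3 and 46.3 against 109 and 126 CPM.

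Metabolic genes were higher in the colon across several routes. Of 20 hypoxia-inducible and glycolytic genes, 16 were higher and 2 lower (median 0.78; 1 lower without splenic library 2). Aldoa and Ldha, glycolytic enzymes, were at 588 and 598 against 331 and 360.4 CPM and at 515 and 509 against 284 and 312 CPM. Pfkfb3, which speeds glycolysis through fructose 2,6-bisphosphate, was lower at 68.4 and 76.1 against 91.9 and 98.7 CPM, a call lost without splenic library 2 (adjusted p = 0.0767). Hif1a, the oxygen-regulated factor itself, and Vegfa, its angiogenic target, were chosen after their values were seen. Hif1a was at 377 and 335 against 121 and 113 CPM and Vegfa at 93.0 and 87.4 against 11.0 and 8.79 CPM. Of 20 nuclear genes of the respiratory chain, 18 were higher and none was lower, but no change reached 2-fold. Atp5b, a subunit of ATP synthase, was at 1210.1 and 1273 against 638 and 629 CPM. Of 13 mitochondrially encoded genes, 8 were higher (4 without colonic library 1 or splenic library 1, 13 without colonic library 2, and none with limma), and their sum was 48910.0 and 32774 CPM in colonic libraries 1 and 2 against 23899 and 26295 CPM in the spleen, so colonic library 1 stood above colonic library 2. mt-Atp6 was at 5487 and 3355 against 2590.4 and 2976 CPM, and without colonic library 1 it no longer passed (adjusted p = 0.147), nor without splenic library 1 (adjusted p = 0.135) or splenic library 2 (adjusted p = 0.0525).

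Of 17 genes of the oxidative stress response, 14 were higher and 2 lower. Nfe2l2, the factor NRF2 that drives the response, was at 370.4 and 328 CPM in the colonic libraries and 109 and 132 CPM in the splenic ones, and Fth1, the ferritin heavy chain, at 2562 and 2732 against 1244 and 1156 CPM. Cat, catalase, was lower at 67.9 and 64.3 against 145 and 152 CPM. Txnrd1, thioredoxin reductase (chosen after its values were seen), was at 359 and 344 against 50.1 and 50.8 CPM, 6.97-fold higher. Among genes that handle lipids, 13 of 19 were higher and 5 lower (3 lower without splenic library 2). The cholesterol exporters differed in direction, with Abcg1 at 54.4 and 55.6 against 113 and 109 CPM and Abca1, chosen after its values were seen, at 254 and 213 against 50.5 and 62.2 CPM. Of 20 lysosomal genes, 8 were higher and 5 lower (5 higher without splenic library 1, and 3 with limma). Of all genes, 31.6% were higher and 28.7% lower. Ctsd, a major aspartic protease, was at 595 and 600.5 against 224 and 260.4 CPM and Ctsh, an aminopeptidase, at 299.6 and 295 against 440.3 and 429.7 CPM. Tfeb, the factor that drives lysosomal genes (chosen after its values were seen), was lower on both scales, at 24.5 and 26.99 against 106 and 101 CPM.

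Cell cycle, clock and handling-sensitive genes carried differences between libraries of 1 group. Of 20 cell cycle genes, 10 were lower (3 without splenic library 1, and 6 with the length offset), 1 was higher, and the median of -0.36 turned to 0.85 on the leukocyte scale, below the 1.23 of all genes. The member that was higher was Plk1, a mitotic kinase, at 55.2 and 49.9 against 20.8 and 19.0 CPM. Of 17 clock genes, 10 were higher and 1 was lower. Cry1, a repressor of the clock, was at 61.0 and 65.7 against 28.2 and 26.3 CPM, and Nfil3, a clock output that also shapes innate lymphoid and dendritic cells, at 279 and 270.3 against 71.4 and 35.1 CPM (log2 fold change 2.36, and 2.96 without splenic library 1). Per1, chosen after its values were seen, was at 347 and 112 CPM in splenic libraries 1 and 2, on either side of the colonic 251.2 and 242 CPM. Of 19 immediate early and heat shock genes, 12 did not pass, 3 were higher and 4 lower. Without splenic library 1, 5 were higher and 1 lower, and without colonic library 1, 7 were higher. Fos, induced within minutes of disturbance, was at 1178 and 1009 against 2004 and 1479 CPM, a call lost without splenic library 1 (adjusted p = 0.0545). Hspa1a, the inducible chaperone Hsp70, was at 578 and 1800.0 CPM in the colonic libraries, a wider gap than between its splenic values of 1329.6 and 1118 CPM.

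Markers of other blood cells completed the inventory. Of 5 primary neutrophil granule genes tested, all 5 were lower in the colon on both scales, with Mpo, myeloperoxidase, at 2.97 and 0.292 against 33.0 and 37.0 CPM. Its log2 fold change was -6.93 without colonic library 1 and -3.57 without colonic library 2, where all libraries gave -4.27. Neutrophil surface genes were less uniform, with 5 of 8 lower and 2 higher. Csf3r, the receptor of the granulocyte growth factor, was at 108 and 98.8 against 476 and 749 CPM. Il1r2, the decoy receptor of interleukin 1, was higher by 21.8-fold, at 562 and 513 against 29.2 and 20.1 CPM. Of 19 T and cytotoxic cell genes, 11 were lower and 1 was higher on the CPM scale (2 without colonic library 1), and 10 did not pass on the leukocyte scale. Of the T and cytotoxic cell genes, 5 were higher and 4 lower on the leukocyte scale, against 72.8% and 5.54% of all genes. Lck, the kinase of the T cell receptor, was at 26.99 and 32.5 against 81.9 and 87.1 CPM. Gzmb, a granzyme, was higher at 32.3 and 26.3 against 6.01 and 6.95 CPM, a call lost when all 10 libraries were fitted together (adjusted p = 0.0534). Of 16 erythroid genes, 10 were lower and 1 was higher, and the 4 globin genes did not pass. Without splenic library 2, 4 were lower and 5 higher.

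Of 11 genes of type 3 innate lymphoid cells, 5 were higher in the colon and 4 lower, against 31.6% and 28.7% of all genes. Such cells can themselves carry MHC class II. Il22, their barrier cytokine, was at 12.1 and 12.5 CPM in the colon, and the splenic libraries held 1 estimated count between them. Il17a had no count in any of the 4 libraries, which allows at most 3 counts in each. Of 11 type 2 innate lymphoid genes, 8 were higher and 1 was lower. Il7r, the receptor of their survival cytokine, was at 58.8 and 66.4 against 31.5 and 35.6 CPM, while Il9r was lower at 4.40 and 3.15 against 14.5 and 13.4 CPM. Among 9 eosinophil and mast cell genes, 3 were higher and 2 lower, against 31.6% and 28.7% of all genes. With all 10 libraries in 1 fit or no count filter 5 were higher, and with limma 1 was lower. Ccr3, the eotaxin receptor, was higher at 70.7 and 69.1 against 16.2 and 30.9 CPM. Prg2, the major basic protein of eosinophil granules, was lower at 7.70 and 9.40 against 21.7 and 51.1 CPM, with splenic library 2 above splenic library 1. Its log2 fold change was -1.36 without splenic library 2, where all libraries gave -2.09.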

How the data were processed

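The deposited files give, per the file headers, each transcript's estimated count, TPM (a share of the library's transcripts, scaled by length), length and effective length. Per the submitters' processing notes the authors used kallisto 0.44.0 and sleuth with build mm10; the sources used here do not name the index release or strand setting. Of the lengths of indexed transcripts, 88.9% were multiples of 3, so they are coding lengths. Estimated counts were summed per gene by transcript identifier (GENCODE M21 names, 22607 genes), rounded to whole numbers, filtered with filterByExpr and scaled by TMM. edgeR 4.0.16 in R 4.3.3 compared 2 with 2 libraries by its quasi-likelihood test at an adjusted p of 0.05. The step was tested on simulated data. DESeq2 1.42.0, limma 3.58.1 on log2(TPM + 1) and leaving out each library were among the alternatives. Library totals set the precision of each count.

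The members and the 54 gene lists were chosen with earlier results of these data known. Values are given for up to 4 members a list, the highest 3 by mean CPM called in the direction most called members take and the highest 1 called the other way. In the lists of class II regulators, class II chains, immunoglobulin constant genes, pan-leukocyte genes and sex-linked genes any member may be given. A few genes that the rule selects are not reported here. Outside the lists the 12 largest rises and the 12 largest falls of genes with at least 20 CPM could be named. Values of Ccr7, Cebpa, Csf1r, Cx3cr1, Cyp1a1, Dll1, Hspa1a, Klf2, Nfkb1, Nfkbid, Nfkbiz and Spic, like those marked in the text, were chosen after being seen. Genes with near-identical copies (immunoglobulin, H2, Naip, Gbp, Oas, Ifit, globin) have uncertain counts, and without a stated strand setting reads of overlapping antisense genes cannot be told apart.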

Additional observations from a re-analysis of the deposited data

How the results depend on the processing

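Under every alternative listed for them the counts of genes called stayed within 1.5 times their reported values. Leaving out 1 library at a time gave 7090 to 8779 genes called, 3762 to 4358 higher and 3328 to 4477 lower on the CPM scale, and 10425 to 11934 called, 9819 to 11149 higher and 581 to 925 lower on the leukocyte scale. Of 2135 values of named genes under alternatives, 2066 kept their direction and side of the threshold, 31 lost and 8 gained the call, and 30 turned sign; the cause was not tested. limma on log2(TPM + 1) moved the median of all genes by -0.13, and Ptprc alone as the reference moved it by 0.21 on the leukocyte scale. The sign changes concern genes that did not pass with all 4 libraries, but 3 of them passed with the turned sign under an alternative. Creb1 passed as lower with limma (adjusted p = 0.0273). Hspa1a passed as higher without colonic library 1 (adjusted p = 0.0163) and as lower without colonic library 2 (adjusted p = 0.000964). Per1 passed as higher without splenic library 1 (adjusted p = 0.000629) and as lower without splenic library 2 (adjusted p = 0.0197). With its sign kept, Nfkb1 passed as higher with DESeq2 (log2 fold change 0.26, adjusted p = 0.00789). Calls were also gained with 1 library left out. Without splenic library 1 the log2 fold change was -2.66 for Ighg2c, 0.53 for Ccr7 and 0.59 for Nfkbiz. Without splenic library 2 it was -0.43 for Nfkbid. With limma the log2 fold change was -0.55 for Creb1, -0.065 for H2-Aa, -0.072 for H2-Ab1, -0.17 for H2-Eb1 and -0.26 for Spic. An effective length offset gave -0.40 for Creb1, -0.005 for H2-Eb1 and -0.078 for Spic. Without the count filter H2-Eb1 was at -0.028 and Spic at -0.012, and with all 10 libraries H2-Eb1 was at -0.018. Zbtb46 on the leukocyte scale was at 0.036 with the first 14 reference genes and at 0.18 with Ptprc alone. Leaving out 1 library gave ranges of -0.011 to 0.28 for Csf1r, -0.080 to 0.24 for H2-Aa, -0.10 to 0.23 for H2-Ab1, -0.15 to 0.092 for H2-Eb1, -1.09 to 0.51 for Hspa1a, -2.66 to 0.72 for Ighg2c, -0.43 to 0.10 for Nfkbid, -0.51 to 1.12 for Per1 and -0.39 to 0.29 for Spic, and on the leukocyte scale -0.052 to 0.13 for Cxcl9 and -0.13 to 0.10 for Zbtb46. Calls of named genes lost with limma were Adgre1 (adjusted p = 0.0795), Ddx3y (0.114), Gbp2 (0.106), Nr3c1 (0.0629), Oasl1 (0.099), Tnfaip3 (0.0716) and mt-Atp6 (0.294). The length offset lost Ctss (0.056), Kit (0.0783), Nr3c1 (0.104) and mt-Atp6 (0.0892), and DESeq2 lost mt-Atp6 (0.096). With all 10 libraries in 1 fit Ctss (0.153) and Oasl1 (0.23) also lost their calls. List counts that moved by over 1.5 times, beside those given above, were small. With limma 1 pan-leukocyte gene, 1 tuft cell gene, 1 immediate early gene and 1 sex-linked gene were higher, and 2 CC chemokine and 2 sex-linked genes were lower. Without the count filter 2 erythroid, 1 homing and 6 immediate early genes were higher. The length offset left 1 homing and 5 mitochondrially encoded genes higher and 3 lipid genes lower, RLE scaling left 2 interferon regulators higher and 3 lipid genes lower, and with all 10 libraries 2 sex-linked genes were lower. On the leukocyte scale 1 class I gene was lower with the first 14 reference genes or Ptprc alone. No paired analysis was possible because both splenic titles carry the same replicate number, so the groups share fewer than 2 numbers. With 2 libraries a group, no sample can be tested for standing apart from its group.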

Other observations

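The largest rises outside the gene lists, among genes of at least 20 CPM, included the following. Cldn3 and Cldn23, which encode claudins of tight junctions, were at 199.6 and 173 CPM in the colonic libraries against 0.0470 and 0.121 CPM in the splenic ones and at 34.6 and 37.4 against 0 and 0.0302 CPM. Hao2, a peroxisomal hydroxy acid oxidase, was at 78.2 and 72.7 against 0.0235 and 0 CPM, and Gsdmc3, of the pore-forming gasdermin family, at 60.9 and 52.0 against 0 and 0.0302 CPM. Fgfbp1, a carrier of fibroblast growth factors, had no count in the spleen and was at least 249-fold higher in the colon, against a floor of 3 counts in each splenic library.

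The largest falls outside the lists included the following. Fcmr, the receptor for IgM on B cells, was at 7.20 and 6.43 CPM in the colonic libraries against 158 and 179.7 CPM in the splenic ones, and Bcl11a, a transcription factor of B cells and plasmacytoid dendritic cells, at 6.16 and 3.21 against 175 and 151 CPM. Ryr3, an intracellular calcium release channel, was at 2.37 and 3.15 against 79.8 and 73.0 CPM, Dscam, a neural adhesion molecule, at 2.17 and 1.87 against 72.5 and 62.7 CPM, and Cacna1i, a subunit of a T-type calcium channel, at 1.13 and 0.467 against 35.0 and 36.2 CPM. Adam11, a catalytically inactive metalloprotease relative, was at 4.73 and 2.04 against 108 and 94.8 CPM. Each was lower on the leukocyte scale too, with log2 fold changes of -3.41, -3.86, -3.61, -3.84, -4.15 and -3.63. Without colonic library 1 these were -4.50 for Bcl11a, -5.08 for Cacna1i and -4.47 for Adam11.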
